A study of Mus musculus with 24 samples.

Results

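The chaperone and heat shock genes are the genes whose symbol in the deposited tables starts with Hsp or Dnaj, together with those named Cct2 to Cct8 and their close relatives, with Hspg2 (perlecan, a matrix protein) left out. The rule found 83 of the 24340 genes that the 6 tables share, and 78 of them reached 0.1 FPKM in at least 1 group. FPKM, the number of fragments scaled by transcript length and by the fragments mapped in a library, is a level per length and can be compared between genes. The members with the lowest listed values inside the minimum were Cct8l1, with a highest value of 0.14 FPKM, and Dnajb7, with 0.143 FPKM. The 5 members left out were Dnajb8, Dnajc22, Dnajc5b, Dnajc5g and Hspb7, of which Dnajc22 came nearest with 0.0624 FPKM.

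RNA came from the striatum of 24 male mice on a C57BL/6J background. The R6/1 mice are hemizygous for a transgene made of the first exon of the human huntingtin gene with an expanded CAG repeat, and all come from a single transgenic line. The WT mice were their littermates. The groups were WT-vehicle (5 mice), R6/1-vehicle (6 mice), WT-RGFP109 (6 mice) and R6/1-RGFP109 (7 mice), where RGFP109 is an inhibitor of the histone deacetylases HDAC1 and HDAC3. RGFP109 was given intraperitoneally at 30 mg/kg on 5 days of each week over 3 weeks, beginning at 11 to 14 weeks of age, and the vehicle mice received dimethyl sulfoxide diluted in saline on the same schedule. Tissue was taken 18 hours after the last injection, at 14 to 17 weeks of age.

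The tables give 1 FPKM value per group, computed by the authors over the 5 to 7 mice of that group. A spread between mice could therefore not be computed here, no difference below was checked over replicates here, and none was tested here. Each level quoted is the mean of the 3 values that the tables list for a group. The tables were scaled separately, and the values of a single table stood at a median of 0.975 to 1.023 times that mean. Levels and sums quoted below can therefore differ slightly more or less between groups than the ratios do. Each ratio was taken within the table of its own pair of groups, as log2 after adding 0.05 FPKM to both values, which understates the change of genes near that level. Of the 10 listed symbols for genes of striatal projection neurons, of which Drd1 and Drd1a name 1 gene, 9 are in the tables. Of these, 8 were lower by more than 0.5 on the log2 scale in R6/1-vehicle than in WT-vehicle, with a median log2 ratio of -1.36, and Penk went from 1102 to 279 FPKM. All 7 choroid plexus markers were lower with RGFP109 in both genotypes, with a summed level of 1471 FPKM for WT-vehicle, 639 FPKM for R6/1-vehicle, 318 FPKM for WT-RGFP109 and 40.04 FPKM for R6/1-RGFP109. The 6 neocortex markers were all lower by more than 0.5 in R6/1-vehicle than in WT-vehicle, with a median of -0.72, and all more than 1.2-fold higher in R6/1-RGFP109 than in R6/1-vehicle, with a median of 0.47. Their summed level was 347 FPKM in WT-vehicle, 196 FPKM in R6/1-vehicle, 321 FPKM in WT-RGFP109 and 249.6 FPKM in R6/1-RGFP109. The part of choroid plexus or neocortex RNA in the values below was not tested. In bulk tissue, fewer cells of a type and less RNA per cell cannot be told apart.

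Molecular chaperones bind unfolded or partly folded proteins and keep them from aggregating. Hsp70 proteins bind and release short hydrophobic stretches in a cycle driven by ATP, J-domain proteins (the Dnaj genes) bring clients to Hsp70 and start its ATP hydrolysis, and Hsp110 proteins exchange its nucleotide. Hsp90 proteins act later on nearly folded clients such as kinases and steroid receptors, small heat shock proteins hold unfolded proteins without ATP, and the chaperonins fold proteins inside a closed ring. In cells exposed to heat or to misfolded protein, heat shock factor 1 binds heat shock elements in front of a subset of these genes, while the chaperones of the endoplasmic reticulum answer to a separate program, the unfolded protein response. In Huntington's disease models, chaperones of the Hsp70 and J-domain groups are known for acting on aggregates of expanded polyglutamine.

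Promoter sequences of 250 bases before to 50 bases after each start site were taken from RefSeq (GRCm38.p6, the assembly that mm10 names), and 68 of the 83 members had an entry. A short element of the heat program and one of the reticulum program were searched on both strands. The heat shock element was taken as 3 units of GAA and TTC in alternation, each separated by 2 bases. It was found in 4 of the 68 members, against 0.662% of 27025 genes. Hspd1 and Hspe1 stand head to head and share 1 stretch with overlapping elements, which each gene reads on its own strand and which lies in the first exon of a longer Hspd1 transcript in GENCODE vM21. The third is Dnajb6, and the fourth, Hsph1, has its match after the start site. In the same annotation the Dnajb6 stretch overlaps an exon of Dnajb6 and coding sequence of the gene Gm5129. Capitals mark the elements.
Hspd1, chr1:55088053-55088082, minus strand: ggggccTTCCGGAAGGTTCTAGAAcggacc
Hspe1, chr1:55088053-55088082, plus strand: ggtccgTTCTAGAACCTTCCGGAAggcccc
Dnajb6, chr5:29735844-29735872, plus strand: agctccgaGAATCTTCCGGAAcgctagac

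The endoplasmic reticulum stress element was taken as CCAAT and CCACG separated by 9 bases, and it was found in 3 of the 68 members, against 0.137% of all genes. All 3 encode proteins of the endoplasmic reticulum. The Hsp90b1 stretch holds the element in both orientations. The Hspa5 stretch overlaps an annotated exon of Hspa5 in GENCODE vM21.
Hspa5, chr2:34772020-34772048, plus strand: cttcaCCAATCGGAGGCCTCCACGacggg
Dnajc3, chr14:118937815-118937857, plus strand: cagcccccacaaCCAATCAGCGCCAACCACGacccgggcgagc
Hsp90b1, chr10:86705521-86705668, minus strand: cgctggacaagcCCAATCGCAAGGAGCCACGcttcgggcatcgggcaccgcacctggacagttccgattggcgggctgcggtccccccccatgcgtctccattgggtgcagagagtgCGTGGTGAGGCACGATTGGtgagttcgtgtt
A match is a run of letters and not a measured binding site. The entries missing from the table were those of Cct4, Dnajc11, Dnajc12, Dnajc18, Dnajc2, Dnajc22, Dnajc30, Dnajc5, Dnajc5b, Hsp90aa1, Hsp90ab1, Hspa13, Hspa8, Hspa9 and Hspb2.

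The chaperone genes spanned more than 3 orders of magnitude in level. Of the 78 members, 5 had a mean over the groups of at least 100 FPKM (Hsp90ab1, Hsp90b1, Hspa8, Hspa5 and Cct5), 50 lay from 10 to 100 FPKM, 15 from 1 to 10 FPKM, and 8 below 1 FPKM. Hsp90ab1, a constitutive form, had a mean of 745 FPKM, while the heat-inducible Hsp70 genes Hspa1a and Hspa1b had 1.15 and 0.648 FPKM, and Hspb1, the inducible small heat shock protein Hsp27, was listed between 0.708 and 0.956 FPKM in the groups. Summed over the 78 members, the level was 3251 FPKM in WT-vehicle, 3666 FPKM in R6/1-vehicle, 3262 FPKM in WT-RGFP109 and 3636 FPKM in R6/1-RGFP109. The R6/1 sums were the higher ones with and without RGFP109, and they made up 0.892% and 0.881% of all FPKM against 0.740% and 0.759% in WT mice.

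**Figure D1:**
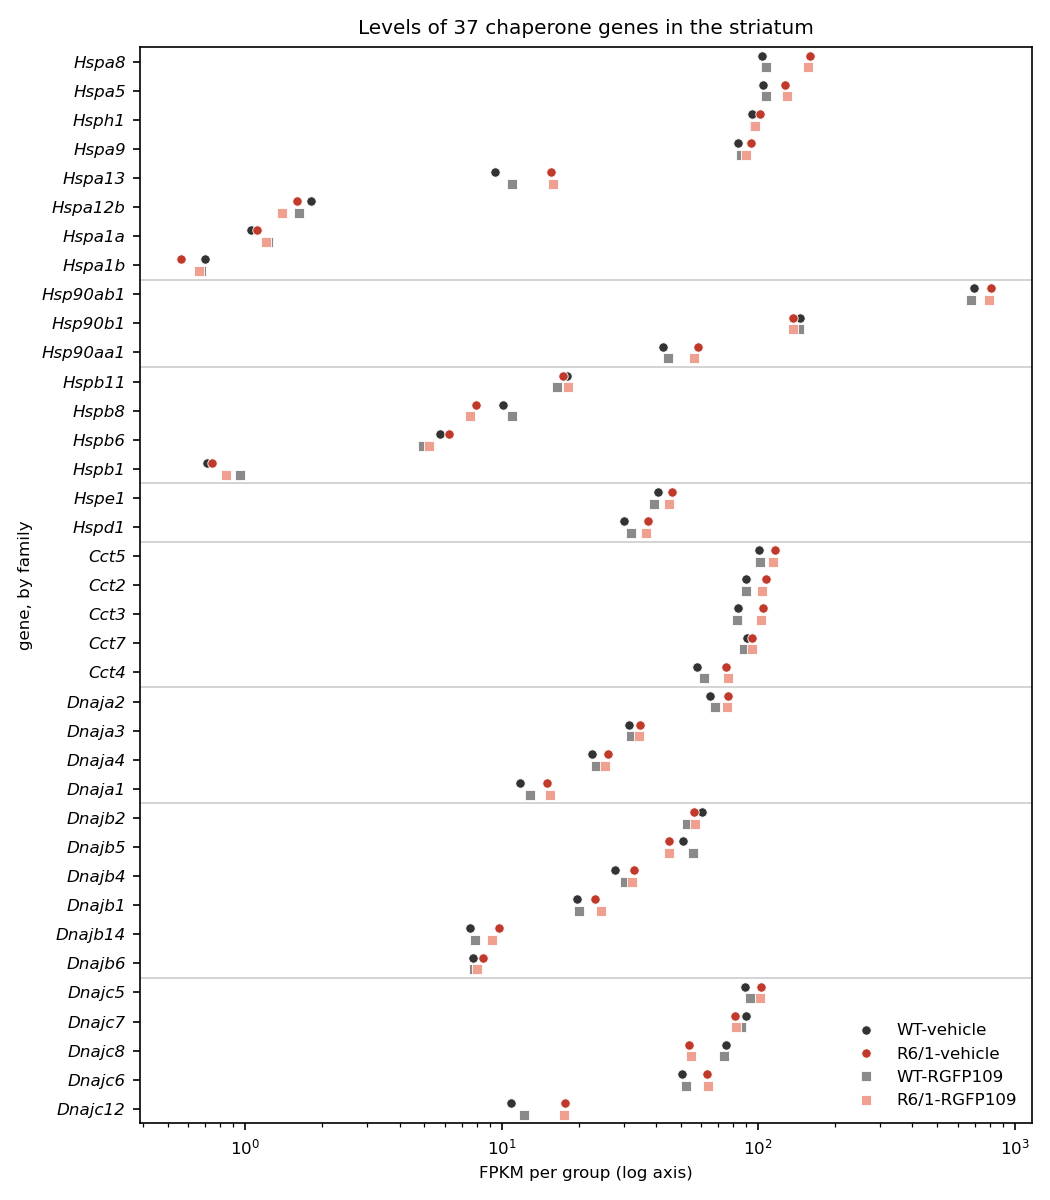
Level of 37 chaperone genes in each of the 4 groups, in FPKM on a log axis, with genes ordered by family and by level. Circles are the vehicle groups (upper row of each gene) and squares the RGFP109 groups (lower row), with WT in dark or grey and R6/1 in red or pink. Each symbol is 1 pooled value without an error. For Hspa8, Hspa13 and Dnajc12 both R6/1 symbols lie to the right of both WT symbols, and for Dnajc8 and Hspb8 to the left.

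The comparison of R6/1-vehicle with WT-vehicle asks what the transgene does to these genes without treatment. Of the 78 members, 4 were higher by more than 0.5 on the log2 scale in R6/1-vehicle, where 5.89% of all 17283 genes with at least 0.1 FPKM were. They were Hspa8, Hspa13, Dnajc12 and, at the bottom of the range, Cct6b. Only Dnajc8 was lower by more than 0.5, or 1 of 78, where 13.3% of all genes were. With the smaller step of 1.2-fold, 13 members were higher (16.7%, against 16.2% of all genes) and 4 were lower (5.13%, against 25.3% of all genes). In the values as deposited and at this minimum, the members' share of higher genes was near that of all genes, and their share of lower genes was below it. This depends on the minimum. With at least 10 FPKM, a minimum chosen after the data were seen, 11 of 56 members were more than 1.2-fold higher (19.6%). Of all genes at that level 11.3% were, so the members' share was then above theirs. There 2 members were lower (3.57%, against 20.9% of all genes). The median log2 ratio of the members was 0.08, with 52 of 78 above 0, and that of all genes was -0.02, with 47.2% above 0.

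The same comparison in mice given RGFP109, R6/1-RGFP109 with WT-RGFP109, shares no mouse with the first. Of the 78 members, 3 were higher by more than 0.5 (Dnajb13, Hspa8 and Hspa13), against 5.55% of all genes, and 2 were lower (Hspb8 and Dnajb7), against 11.7% of all genes. At 1.2-fold 9 members were higher, where 14.5% of all genes were, and 5 were lower, where 22.4% of all genes were. With at least 10 FPKM, 7 of 56 members were higher (12.5%, against 8.43% of all genes at that level). There 3 were lower (5.36%, against 17.9%). The median log2 ratio was 0.07 for the members and 0.00 for all genes. Between these comparisons 45 members were higher in R6/1 mice both times and 19 were lower both times, and 14 pointed opposite ways. That is 57.7% and 24.4% of the members, beside 38.3% and 40.7% of all genes. The log2 ratios of the comparisons had a Pearson correlation of 0.61 over the 78 members and 0.86 over the 70 with at least 1 FPKM. At that level the Spearman correlation was 0.80 over the members and 0.76 over all 14124 genes. These are a description across genes measured in the same libraries, which are not independent of each other.

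The totals of FPKM were lower in R6/1 mice, at 405794 FPKM against 444133 FPKM in the table of the vehicle groups, and the sign of small ratios depends on this. When both groups of a table were scaled to the same total, an alternative chosen after the data were seen, the ratios of the vehicle comparison moved up by about 0.13 and those of the RGFP109 comparison by about 0.09 on the log2 scale, and by less for genes at low level, where the added 0.05 FPKM counts. In the vehicle comparison the median of all genes then lay at 0.10 and that of the members at 0.21, with 83.3% of the members and 62.5% of all genes above 0. The members past 0.5 became 5 higher and 0 lower in place of 4 and 1 (6.41% and 0%, beside 9.82% and 10.004% of all genes). Those past 1.2-fold became 33 higher and 1 lower in place of 13 and 4 (42.3% and 1.28%, beside 29.3% and 17.8% of all genes), so that the members' share of higher genes was then above that of all genes. In the RGFP109 comparison 78.2% of the members and 61.8% of all genes were then above 0. There 5 members were past 0.5 upward and 1 downward in place of 3 and 2 (6.41% and 1.28%, beside 7.31% and 9.36% of all genes), and 21 were 1.2-fold higher and 4 lower (26.9% and 5.13%, beside 23.2% and 17.6% of all genes). The sign of 13 members turned in the first comparison and of 9 in the second, among those named below Hsp90b1, Dnajb2, Dnajb3, Hspb11, Dnajb11, Dnajb12, Dnajc1, Hspa12a and Hspa14 in the first, Hspa1a, Hspa1b, Hsph1 and Dnajc19 in the second, and Dnajc10 and Hspbp1 in both.

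**Figure D2:**
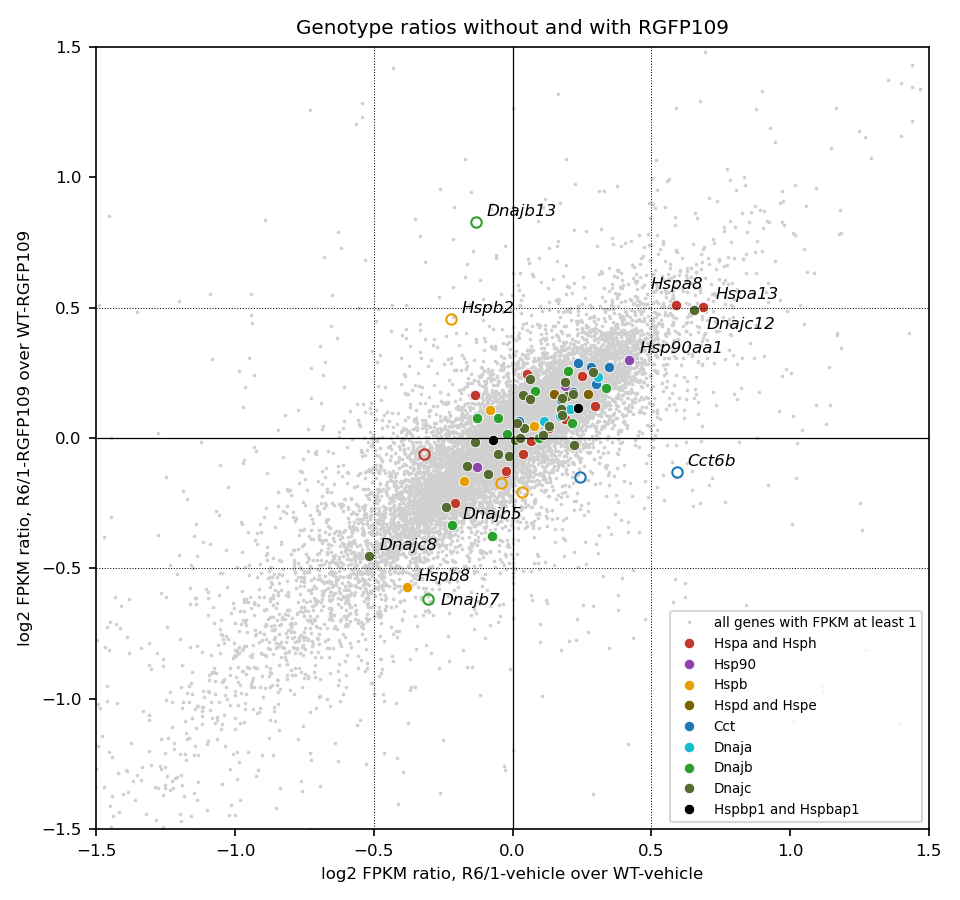
Log2 FPKM ratio of R6/1 over WT mice, in vehicle mice on the horizontal axis and in RGFP109 mice on the vertical axis. Coloured points are the 78 members by family, open where a member stayed below 1 FPKM in every group, and small grey points are the 14124 genes with at least 1 FPKM, of which 513 lie outside the axes. Dotted lines stand at 0.5 and -0.5. Hspa8, Hspa13 and Dnajc12 stand at the upper right, Dnajc8 and Hspb8 at the lower left, and the members far from the diagonal are mostly open symbols.

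The Hsp70 genes held some of the largest ratios. Hspa8 encodes Hsc70, the constitutive cytosolic Hsp70 that also strips clathrin from vesicles and carries proteins to lysosomes. On mm10 it lies at chr9:40801273-40805199, and its level was 104 FPKM in WT-vehicle, 159 FPKM in R6/1-vehicle, 107 FPKM in WT-RGFP109 and 156 FPKM in R6/1-RGFP109. Both R6/1 groups stood above both WT groups, with log2 ratios of 0.59 in vehicle mice and 0.51 in RGFP109 mice. In the vehicle comparison 15.2% of all genes had a larger ratio in size, up or down. Across the remaining pairs the log2 ratio was 0.56 for R6/1-RGFP109 over WT-vehicle and 0.54 for R6/1-vehicle over WT-RGFP109.

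Hspa13, also called Stch, is a microsomal Hsp70 that lacks the peptide-binding part of its relatives. Its locus is chr16:75755191-75766818, and it was listed at 9.44 FPKM in WT-vehicle, 15.6 FPKM in R6/1-vehicle, 11.0 FPKM in WT-RGFP109 and 15.9 FPKM in R6/1-RGFP109. The R6/1 groups were again the higher ones, by log2 ratios of 0.69 and 0.50, the first being the largest of any member in that comparison and the second just past the step of 0.5 (it fell short when the ratios were centred on the median gene). In WT mice the RGFP109 group was above the vehicle group by a log2 ratio of 0.21, and the R6/1 groups differed by 0.03.

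The other Hsp70 genes showed smaller ratios. Hspa5, the Hsp70 of the endoplasmic reticulum (BiP), was listed at 104 FPKM in WT-vehicle, 127 FPKM in R6/1-vehicle, 108 FPKM in WT-RGFP109 and 130.1 FPKM in R6/1-RGFP109, with genotype log2 ratios of 0.25 and 0.24. Hspa9, the mitochondrial Hsp70 (mortalin), had 0.13 and 0.04 at 83.9 to 94.1 FPKM. The Hsp110 genes were uneven, with log2 ratios of 0.30 and 0.12 for Hspa4l, 0.19 and 0.07 for Hspa4, and 0.07 and -0.01 for Hsph1, which was listed at 94.8 FPKM in WT-vehicle and 102 FPKM in R6/1-vehicle. Hspa12b, an endothelial member, was lower in R6/1 mice by log2 ratios of -0.21 and -0.25 at no more than 1.80 FPKM (-0.08 and -0.16 with equal totals). Its listed locus is 25.7 times as long as its RefSeq span. It is 1 of 10 members whose listed locus is over 1.5 times that span. The others include Cct8 (3.26 times), Dnaja1 (3.02 times), Dnajc19 (2.55 times) and Dnajb3 (162 times). The 6 endothelial markers had medians of -0.15 and -0.14, with 2 of them above 0 in vehicle mice. Whether endothelial content has a part in the Hspa12b values was not tested.

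The heat-inducible pair was near the floor in every group. Hspa1a was listed at 1.06, 1.11, 1.23 and 1.2 FPKM and Hspa1b at 0.696, 0.562, 0.675 and 0.660 FPKM, in the order WT-vehicle, R6/1-vehicle, WT-RGFP109 and R6/1-RGFP109. The sequences of these neighbours are nearly identical, so the split of reads between them is uncertain. Hspa1a differed between genotypes by log2 ratios of 0.04 and -0.06, and Hspa1b by -0.32 and -0.06. In the Hsp70 and Hsp110 group as a whole, 9 of 14 members were above 0 in vehicle mice (64.3%, beside 47.2% of all genes) and 8 of 14 in RGFP109 mice (57.1%, beside 49.8%). With equal totals 11 of 14 were above 0 in each (78.6%, beside 62.5% and 61.8%).

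The cytosolic Hsp90 genes were higher in R6/1 mice, and the Hsp90 of the endoplasmic reticulum was not. Hsp90aa1, the stress-inducible cytosolic form at chr12:110691036-110696395, was listed at 42.7 FPKM in WT-vehicle, 58.4 FPKM in R6/1-vehicle, 44.6 FPKM in WT-RGFP109 and 56.3 FPKM in R6/1-RGFP109. Its log2 ratios were 0.42 and 0.30, below the step of 0.5 and above 1.2-fold in both comparisons. With equal totals they became 0.55, past the step of 0.5, and 0.39. Hsp90ab1, the constitutive form and the most abundant member, had 697, 813, 676 and 794 FPKM in the same order, with log2 ratios of 0.19 and 0.20. Hsp90b1 (Grp94) had 146, 136, 144 and 137 FPKM, with log2 ratios of -0.13 and -0.11, which became 0.00 and -0.02 with equal totals. Hspa5 and Hsp90b1, which carry the same stress element, thus had ratios of opposite sign in the tables as deposited. Dnajc3, the third gene with that element and an inhibitor of a kinase of the unfolded protein response, had 0.04 and 0.17.

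CCT, or TRiC, is the cytosolic chaperonin that folds actin and tubulin, and its subunits are each encoded by a gene of their own. The 7 Cct genes with at least 1 FPKM were all above 0 in both genotype comparisons, where 48.5% and 51.2% of all genes at that level were. They stayed above 0 with centred ratios and with equal totals. With equal totals 62.5% and 61.8% of all genes with at least 0.1 FPKM were above 0 as well. As deposited, the log2 ratios of the 7 were 0.02 to 0.35 in vehicle mice and 0.07 to 0.29 in RGFP109 mice. Cct4 was the highest of them in vehicle mice, with 57.6 FPKM in WT-vehicle, 75.1 FPKM in R6/1-vehicle, 61.5 FPKM in WT-RGFP109 and 76.0 FPKM in R6/1-RGFP109. Cct3 went from 83.7 to 104 FPKM in vehicle mice and from 83.0 to 103 FPKM in RGFP109 mice, with log2 ratios of 0.28 and 0.27. Cct6a had 0.24 and 0.29, and Cct7 stood at the lower end with 0.02 and 0.07. Tcp1, the subunit whose symbol the rule does not match, had 94.3 and 109.5 FPKM in the vehicle groups and 94.2 and 108 FPKM in the RGFP109 groups, with log2 ratios of 0.18 and 0.16.

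Cct6b, a form of a subunit known from testis, and the related Cct8l1 were listed at no more than 0.197 and 0.138 FPKM. At that level their log2 ratios of 0.59 and 0.24 in vehicle mice rest on hundredths of an FPKM, and with RGFP109 they were -0.13 and -0.15. Of the mitochondrial chaperonin, Hspd1 (Hsp60) was listed at 30.1, 37.1, 31.9 and 36.7 FPKM and its lid Hspe1 (Hsp10) at 40.7, 46.2, 39.2 and 45.1 FPKM, again in the order WT-vehicle, R6/1-vehicle, WT-RGFP109 and R6/1-RGFP109. Both were higher in R6/1 mice in both comparisons, by log2 ratios of 0.27 and 0.17 for Hspd1 and 0.15 and 0.17 for Hspe1. Their RefSeq spans overlap, and the library kit does not keep strand, so reads in the shared part cannot be told apart.

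**Figure D3:**
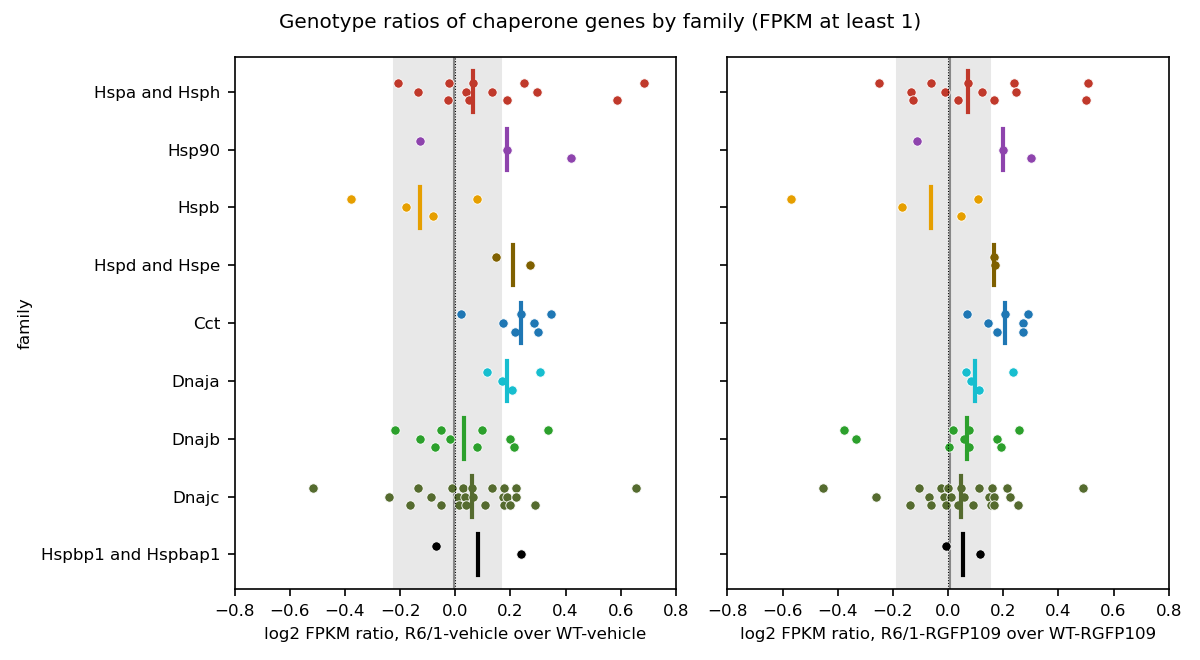
Log2 FPKM ratio of R6/1 over WT mice by family, for the 70 members with at least 1 FPKM, in vehicle mice (left) and RGFP109 mice (right). Each point is 1 gene, the coloured bar is the median of the family, and the grey band and line are the quartiles and the median of the 14124 genes with at least 1 FPKM. The Cct, Dnaja, Hspd and Hspe points all lie to the right of 0 in both panels, and the Hspb median lies to its left in both.

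Among the J-domain genes the ratios went both ways. The 4 Dnaja genes, the closest relatives of the bacterial DnaJ, were above 0 in both comparisons, where 47.2% and 49.8% of all genes were. Their log2 ratios ran from 0.11 to 0.31 in vehicle mice and from 0.07 to 0.23 in RGFP109 mice. Dnaja1, a farnesylated partner of Hsc70, was the highest, at 11.8 FPKM in WT-vehicle, 15.0 FPKM in R6/1-vehicle, 12.9 FPKM in WT-RGFP109 and 15.5 FPKM in R6/1-RGFP109. Dnaja2, the most abundant at 64.9 to 76.6 FPKM, had log2 ratios of 0.21 and 0.11. Dnaja3, which acts in mitochondria, had 0.11 and 0.07, and Dnaja4 had 0.17 and 0.08.

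In the Dnajb group, 5 of 12 members were above 0 in vehicle mice (41.7%, beside 47.2% of all genes) and 9 of 12 in RGFP109 mice (75%, beside 49.8%). With equal totals 9 of 12 were above 0 in each (75%, beside 62.5% and 61.8%). Dnajb1 (Hsp40), the main inducible J-domain partner of Hsp70, was listed at 19.7 FPKM in WT-vehicle, 23.1 FPKM in R6/1-vehicle, 20.02 FPKM in WT-RGFP109 and 24.5 FPKM in R6/1-RGFP109, with log2 ratios of 0.20 and 0.26. Dnajb5 was the lowest of the abundant ones, at 50.9, 44.8, 55.6 and 45.1 FPKM in the same order and log2 ratios of -0.22 and -0.34, which became -0.09 and -0.24 with equal totals, both within 1.2-fold. Dnajb14, a membrane protein of the endoplasmic reticulum, had 0.34 and 0.19, and Dnajb4 had 0.21 and 0.06.

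Dnajb6 and Dnajb2 are known as strong suppressors of polyglutamine aggregation. Dnajb6 was listed between 7.75 and 8.48 FPKM in all groups, with genotype log2 ratios of 0.10 and 0.00. Dnajb2, a neuronal form, had 60.2 FPKM in WT-vehicle, 56.3 FPKM in R6/1-vehicle, 52.7 FPKM in WT-RGFP109 and 56.8 FPKM in R6/1-RGFP109. Its log2 ratio was -0.13 in vehicle mice and 0.08 in RGFP109 mice, the value of WT-RGFP109 being the lowest, and with equal totals the first became 0.00.

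The Dnajc group, the largest, held 25 members with J domains in otherwise unrelated proteins, and 18 of them were above 0 in vehicle mice and 16 in RGFP109 mice (72% and 64%, beside 47.2% and 49.8% of all genes). Dnajc12, a partner of Hsc70 for the enzymes that make dopamine and serotonin, lies at chr10:63382443-63408840. Its level was 10.9 FPKM in WT-vehicle, 17.6 FPKM in R6/1-vehicle, 12.2 FPKM in WT-RGFP109 and 17.6 FPKM in R6/1-RGFP109. The R6/1 groups were alike and above both WT groups, with log2 ratios of 0.66 and 0.49, the second just under the step of 0.5. With equal totals the ratios became 0.79 and 0.58, both past that step.

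Dnajc8, a nuclear protein linked to splicing, was the member with the lowest ratio in vehicle mice. At chr4:132535559-132553742, it was listed at 75.2 FPKM in WT-vehicle, 53.8 FPKM in R6/1-vehicle, 73.4 FPKM in WT-RGFP109 and 54.9 FPKM in R6/1-RGFP109. The log2 ratios were -0.52 and -0.45, and -0.39 and -0.36 with equal totals. Dnajc2, a partner of the ribosome, was also lower in R6/1 mice, by log2 ratios of -0.24 and -0.26 from 19.1 FPKM in WT-vehicle and 20.02 FPKM in WT-RGFP109 (-0.11 and -0.17 with equal totals).

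Dnajc6 (auxilin), which recruits Hsc70 to clathrin-coated vesicles in neurons, had 50.3 FPKM in WT-vehicle, 63.0 FPKM in R6/1-vehicle, 52.2 FPKM in WT-RGFP109 and 63.7 FPKM in R6/1-RGFP109. Its log2 ratios were 0.29 and 0.25. Dnajc5 (cysteine string protein, the J-domain protein of synaptic vesicles) had 88.7, 103, 93.2 and 101 FPKM in the same order, with log2 ratios of 0.18 and 0.09. Dnajc7, a co-chaperone that binds both Hsp70 and Hsp90, went the other way, by -0.16 and -0.11 at 81.6 to 89.4 FPKM, and its log2 ratios with equal totals were -0.03 and -0.02. Its gene overlaps Cnp, an oligodendrocyte marker with log2 ratios of -0.43 and -0.02, and the part of Cnp reads was not tested.

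The remaining Dnajc genes and the relatives of Hsp70 not yet named differed by less than 1.2-fold between genotypes in the values as deposited. With equal totals some passed that step. Among them were Dnajc15 and Dnajc24 in vehicle mice, with log2 ratios of 0.33 and 0.35. Dnajc9 did so in both comparisons (0.32 and 0.31), and Hspa2 in RGFP109 mice (0.34). In mitochondria, Dnajc15, of the protein import motor, had 48.6 FPKM in WT-vehicle, 57.0 FPKM in R6/1-vehicle, 51.0 FPKM in WT-RGFP109 and 58.3 FPKM in R6/1-RGFP109, with log2 ratios of 0.20 and 0.16. Dnajc19, also of that motor, had -0.14 and -0.01, and Dnajc11, of the inner membrane organizing complex, had 0.04 in both comparisons. Among the J-domain partners of BiP in the endoplasmic reticulum, Dnajb11 had -0.02 and 0.02, and Dnajc1 had -0.09 and -0.14. Dnajc10, which is also a disulfide reductase, had -0.01 and -0.07. Dnajb9, a target of the unfolded protein response, had 0.08 and 0.18, and the membrane protein Dnajb12 had -0.05 and 0.08.

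Dnajc9, a chaperone of histones, had 20.4 FPKM in each WT group, 23.8 FPKM in R6/1-vehicle and 24.3 FPKM in R6/1-RGFP109, with log2 ratios of 0.19 and 0.21. Dnajc24, an enzyme of diphthamide synthesis, had 0.22 and 0.17, and Dnajc13, of endosomes, had 0.13 and 0.05. Hspa12a and Hspa14, distant relatives of Hsp70, had -0.02 in vehicle mice and -0.13 in RGFP109 mice each. Hspa2, known from the testis, had 0.05 and 0.25 at 16.5 to 20.04 FPKM. Hspbp1, a nucleotide exchange factor of Hsp70 and not a chaperone, had -0.07 and -0.01 at 62.8 to 65.2 FPKM.

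The 7 numbered Hspb genes are small heat shock genes apart from Hspb11. Of the 7, 2 were above 0 in vehicle mice (28.6%, beside 47.2% of all genes) and 3 in RGFP109 mice (42.9%, beside 49.8%). With equal totals 4 and 3 were above 0 (57.1% and 42.9%, beside 62.5% and 61.8%). Hspb8 (Hsp22), which works with Bag3 to send aggregates to autophagy, lies at chr5:116408491-116422864. It was listed at 10.1 FPKM in WT-vehicle, 7.97 FPKM in R6/1-vehicle, 11.0 FPKM in WT-RGFP109 and 7.53 FPKM in R6/1-RGFP109. Both R6/1 groups were below both WT groups, by log2 ratios of -0.38 in vehicle mice and -0.57 in RGFP109 mice. With equal totals these became -0.25, within 1.2-fold, and -0.48, short of the step of 0.5. Bag3 itself had -0.22 and -0.11 at no more than 3.50 FPKM.

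Hspb6 (Hsp20) had 5.76, 6.22, 4.94 and 5.22 FPKM, in the order WT-vehicle, R6/1-vehicle, WT-RGFP109 and R6/1-RGFP109, and genotype log2 ratios of 0.08 and 0.05. Hspb11, which despite its name belongs to the transport machinery of cilia, had -0.08 and 0.11 at 16.5 to 18.2 FPKM. Hspb1 had 0.03 and -0.21 below 1 FPKM. Cryab, the small heat shock protein alpha B-crystallin, is not matched by the rule but is the abundant gene of its kind here, at 168 FPKM in WT-vehicle, 118 FPKM in R6/1-vehicle, 132 FPKM in WT-RGFP109 and 123 FPKM in R6/1-RGFP109. Its log2 ratio of -0.55 in vehicle mice and -0.14 in RGFP109 mice stood beside medians of -0.67 and -0.18 for the 6 oligodendrocyte markers, all 6 of which were more than 1.2-fold lower in R6/1-vehicle. The part of oligodendrocyte RNA in the Cryab value was not tested.

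The co-chaperones and regulators whose symbols the rule does not match were listed as 55 further genes, of which 54 reached 0.1 FPKM. In vehicle mice 7 of them were more than 1.2-fold higher in R6/1 and 6 were lower, and in RGFP109 mice 4 and 3, with medians of 0.02 in each. At that step 16.2% of all genes were higher and 25.3% lower in vehicle mice, and 14.5% and 22.4% in RGFP109 mice. The higher ones included Stip1 (Hop), the adaptor that passes clients from Hsp70 to Hsp90, with 73.6 FPKM in WT-vehicle and 94.6 FPKM in R6/1-vehicle and log2 ratios of 0.33 and 0.21. Fkbp4, an Hsp90 partner of steroid receptors, had 0.29 and 0.28, and Ahsa2, of the family that speeds up the ATP hydrolysis of Hsp90, had 0.44 and 0.40. Vbp1, a prefoldin subunit that hands actin and tubulin to CCT, had the highest ratio of the list in vehicle mice, 0.49, and 0.40 in RGFP109 mice. Bag2, a co-chaperone of Hsp70, had the highest in RGFP109 mice, 0.66, and 0.43 in vehicle mice, at 4.34 to 7.19 FPKM. Lowest in both was Unc45b, a myosin chaperone of muscle, with -0.75 and -0.52 at no more than 0.377 FPKM, and Sdf2l1, of the endoplasmic reticulum, had -0.52 and -0.43. The other prefoldin genes were not alike, with Pfdn2 at -0.22 and -0.18 and Pfdn4 at 0.11 and 0.09. Hsf1, the heat shock factor itself, had -0.07 and -0.09 at 21.9 to 23.6 FPKM.

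A list of 21 classical targets of heat shock factor, 14 of which are members, had a median log2 ratio of 0.19 in vehicle mice and 0.12 in RGFP109 mice. In vehicle mice 7 of the 21 were more than 1.2-fold higher and 4 lower, where 16.2% and 25.3% of all genes were. In RGFP109 mice 3 of the 21 were higher and 1 lower, where 14.5% and 22.4% of all genes were. The inducible Hspa1a, Hspa1b and Hspb1 stayed near or below 1 FPKM, and Bag3 and Serpinh1, a collagen chaperone, had negative ratios. The 7 higher genes in vehicle mice were Hspa8, Hsp90aa1, Stip1, Dnaja1, Hspa4l, Fkbp4 and Hspd1, and the 4 lower ones were Cryab, Hspb8, Serpinh1 and Hspa1b. A list of 20 genes of the unfolded protein response, 5 of which are members, had medians of 0.00 and 0.01. In vehicle mice 0 were more than 1.2-fold higher and 4 lower, where 16.2% and 25.3% of all genes were. In RGFP109 mice 0 were higher and 3 lower, where 14.5% and 22.4% of all genes were. The 4 in vehicle mice were Trib3, Sdf2l1, Atf6 and Ddit3. Hspa5 had the highest ratio of that list in both. With equal totals its log2 ratios became 0.38 and 0.33, past 1.2-fold in both comparisons. The stress-induced Trib3 had the lowest, at 1.23 FPKM in WT-vehicle and 0.478 FPKM in R6/1-vehicle.

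The comparison of R6/1-RGFP109 with R6/1-vehicle asks what the inhibitor does in R6/1 mice. None of the 78 members passed 0.5 on the log2 scale in either direction, where 6.11% of all genes did. At 1.2-fold 1 member was higher (Hspb3, against 6.24% of all genes) and 1 was lower (Dnajb3, against 7.53% of all genes). The median log2 ratio was -0.01 for the members and 0.00 for all genes, and the lower and upper quartiles of the members were -0.04 and 0.03. All 56 members with at least 10 FPKM were within 1.2-fold, as were 95.2% of all genes at that level. The members with the largest genotype ratios were among them. Hspa8 had a treatment log2 ratio of -0.03, Hspa13 of 0.03, Dnajc12 of -0.01, Dnajc8 of 0.03, Hspb8 of -0.09 and Hsp90aa1 of -0.06. Seen against WT-vehicle, the log2 ratio of R6/1-RGFP109 was 0.71 for Hspa13, 0.65 for Dnajc12, 0.36 for Hsp90aa1, -0.49 for Dnajc8 and -0.46 for Hspb8.

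In WT mice RGFP109 gave 3 members past 0.5, where 8.26% of all genes passed it, and all 3 stayed below 1 FPKM. Cct6b was higher by 0.52, and Dnajb13 and Hspb2 were lower. At 1.2-fold 5 members were higher, against 7.22% of all genes, and 2 were lower, against 10.7% of all genes. The members' median was 0.03. The 56 members with at least 10 FPKM were again all within 1.2-fold, as were 93.8% of all genes at that level, the widest in the R6/1 comparison being Dnajc19, a part of the mitochondrial protein import motor, with a log2 ratio of 0.19. Between the treatment comparisons, which share no mouse, 22 members were higher both times, 17 were lower both times and 39 pointed opposite ways. The first 2 counts are 28.2% and 21.8% of the members, near the 24.2% and 25.7% of all genes.

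**Figure D4:**
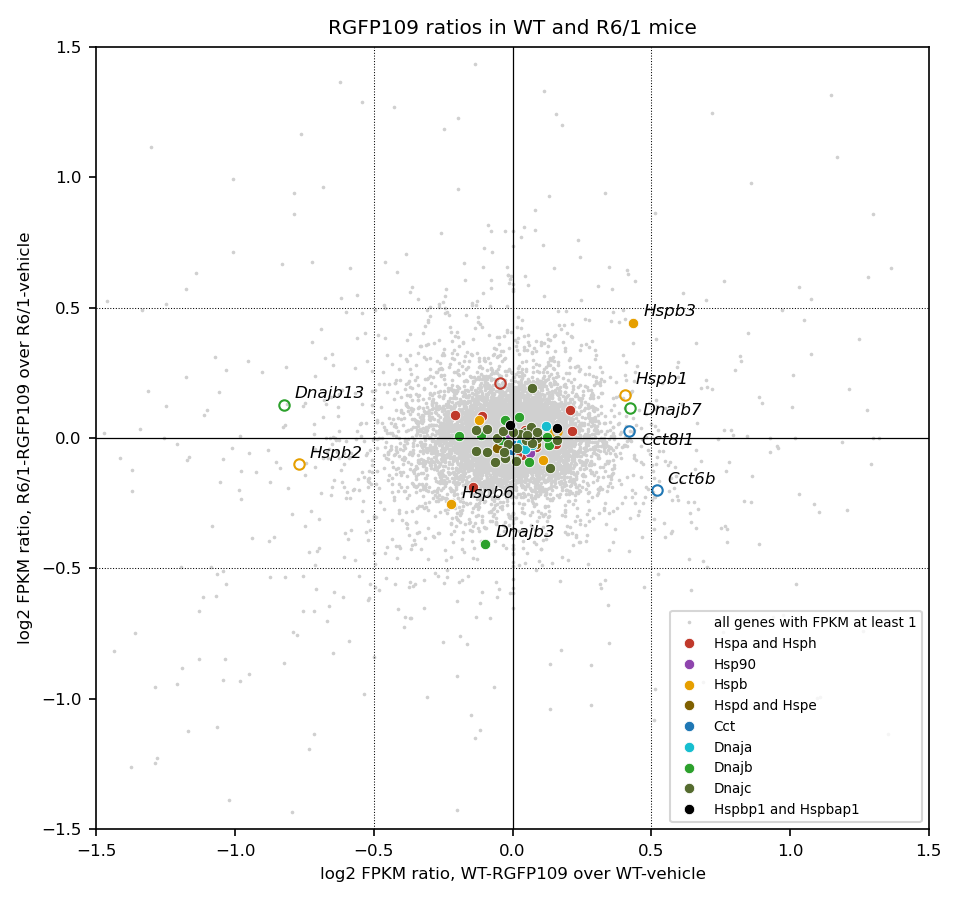
Log2 FPKM ratio of RGFP109 over vehicle, in WT mice on the horizontal axis and in R6/1 mice on the vertical axis, drawn as for the genotype ratios and on the same scale, with 378 of the 14124 grey genes outside the axes. The filled points, members with at least 1 FPKM, crowd around 0, Hspb3 stands at the upper right, and the members past 0.5 or -0.5 are open symbols.

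Hspb3, a small heat shock protein best known from muscle, was the only member more than 1.2-fold apart in both treatment comparisons. It was listed at 1.91 FPKM in WT-vehicle, 1.73 FPKM in R6/1-vehicle, 2.61 FPKM in WT-RGFP109 and 2.37 FPKM in R6/1-RGFP109. Both RGFP109 groups were above both vehicle groups, by log2 ratios of 0.44 in R6/1 and 0.44 in WT mice. The R6/1 groups lay below their WT groups, with log2 ratios of -0.18 in vehicle mice and -0.17 in RGFP109 mice. Hspb1 was higher with RGFP109 by 0.41 in WT and 0.17 in R6/1 mice below 1 FPKM, and Hspb6 was lower by -0.22 and -0.25.

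Dnajb13, a part of the radial spokes of motile cilia, was listed at 0.633 FPKM in WT-vehicle, 0.586 FPKM in R6/1-vehicle, 0.335 FPKM in WT-RGFP109 and 0.648 FPKM in R6/1-RGFP109. The WT-RGFP109 group stood apart, with a treatment log2 ratio of -0.82 in WT and 0.13 in R6/1 mice and a genotype log2 ratio of 0.83 in RGFP109 mice. All 6 ependymal markers, genes of the ciliated cells that line the ventricles, were lower by more than 0.5 in WT-RGFP109 than in WT-vehicle, with a median of -0.68, and their summed level was 24.5, 19.4, 14.6 and 18.0 FPKM in the order WT-vehicle, R6/1-vehicle, WT-RGFP109 and R6/1-RGFP109. The part of ependymal content in the Dnajb13 values was not tested.

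Hspb2 had 0.908, 0.789, 0.511 and 0.736 FPKM in that order, with the lowest value again in WT-RGFP109 and a treatment log2 ratio of -0.77 in WT mice. Its span overlaps that of Cryab, and reads in the overlap cannot be assigned without strand. Dnajb3, lower by -0.41 with RGFP109 in R6/1 mice and by -0.10 in WT mice at 1.48 to 2.03 FPKM, lies inside the large cluster of Ugt1a genes. In all, 19 of the 83 members overlap another protein-coding gene in RefSeq.

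For the pairs that differ in both genotype and treatment, of the 78 members, 3 passed 0.5 for R6/1-RGFP109 over WT-vehicle, where 19.3% of all genes did, and 5 for R6/1-vehicle over WT-RGFP109, where 17.5% did. At 1.2-fold 16 members were higher and 5 lower in the first of these pairs (20.5% and 6.41%, beside 16.0% and 25.1% of all genes). In the second pair 9 were higher and 8 lower (11.5% and 10.3%, beside 15.5% and 21.9% of all genes). These pairs share their groups with the comparisons above and are no separate evidence.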

How the data were processed

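Striatal RNA of 24 mice in 4 groups was measured by RNA-seq. The authors sequenced single-end TruSeq libraries in 2 pools, aligned reads with STAR 2.5.0b to the RefSeq transcriptome of mm10, and deposited FPKM values, 1 per group and table, from Cuffdiff of Cufflinks 2.2.1 for each of the 6 pairs of groups. Cuffdiff rescaled the libraries for each pair, which multiplies all values of a group by one factor per table. The fold changes and test results of the tables were not used. The tables hold no counts and no values per mouse, so depth is unknown and neither a test nor an interval could be computed here.

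Genes found in all 6 tables were kept where any listed value reached 0.1 FPKM (17283 of 24340). Ratios were log2 after adding 0.05 FPKM, and steps of 0.5 and of 1.2-fold were counted over members and over all genes. Genes are named if past 0.5 with at least 1 FPKM, among the 3 most abundant or the highest or lowest of a family, or from a fixed list, and others (such as Hspb3, Hspb2, Dnajb13, Dnajb3, Hspa4l and Cct6b) were chosen after their values were seen. The members and lists were chosen with earlier results of these data known. Coordinates follow the tables (mm10), counted from 1. Alternatives covered the pseudocount, the minimum, the scaling, the path through other tables and the step. The calculation was tested on simulated data. Python 3.11.15, numpy 2.4.6, pandas 2.3.3 and matplotlib 3.10.9 were used.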

Additional observations from a re-analysis of the deposited data

How the results depend on the processing

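No paired analysis was possible because the tables hold 1 value per group, and for the same reason no mouse could be left out. Equal totals and the minimum of 10 FPKM were chosen after seeing the data. With the step of 1.2-fold, members past it numbered 17 for R6/1-vehicle over WT-vehicle and 14 for R6/1-RGFP109 over WT-RGFP109, against 5 each at 0.5, and 2 and 7 for RGFP109 over vehicle in R6/1 and WT mice, against 0 and 3. Above a log2 ratio of 1 there were 0 members in each of the 4 comparisons, where 6.19%, 5.31%, 2.34% and 3.25% of all genes were, in that order. For R6/1-RGFP109 over WT-RGFP109 the 5 members past 0.5 became 2 with a pseudocount of 1 FPKM (7.53% of all genes), and 3 with a minimum of 1 FPKM (13.2%) or of 10 FPKM (10.6%). For WT-RGFP109 over WT-vehicle the 3 became 0 with that pseudocount (2.55%) or either minimum (4.37% and 3.48%). With no minimum, the counts were 1 for R6/1-RGFP109 over R6/1-vehicle (6.09%) and 5 for WT-RGFP109 over WT-vehicle (8.53%). The minimum adds or removes genes of low level by construction. With equal totals the median log2 ratio of the members for R6/1-vehicle over WT-vehicle was 0.21 in place of 0.08. Equal totals and the step of 1.2-fold together gave 33 members higher and 1 lower for that pair in place of 13 and 4, and 21 and 4 for R6/1-RGFP109 over WT-RGFP109 in place of 9 and 5. The other counts past 0.5 stayed within 1.5 times and the other medians within 0.1. Of 592 recomputed log2 ratios of the 37 genes that the naming rule picked, 551 moved by less than 0.1 on the log2 scale, 41 moved by more (37 with equal totals and 4 with a pseudocount of 1 FPKM). Of the ratios past 0.5 among them, 0 turned sign, while ratios close to 0 did with equal totals. That 0 says little. Equal totals moved ratios by about 0.13 or less and a pseudocount keeps the sign, so neither could turn a ratio past 0.5.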
